A study of Mus musculus with 12 samples.

Results

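The 10 genes described here encode proteins of the BCL2 family and were taken by symbol, out of 52553 features in the count tables. The prosurvival members are Bcl2, Bcl2l1, Mcl1 and Bcl2a1b. The 6 proapoptotic members are the effectors Bax and Bak1 and the BH3-only genes Bcl2l11, Bid, Bbc3 and Pmaip1. All 10 passed the filter on low counts, and their lowest value in any library was 6.06 CPM (Bbc3), so none was near the counting limit of 3 counts. CPM are counts scaled to the TMM library sizes.

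Expression was measured by RNA-seq in cells labelled as monocytes, collected with magnetic beads against CD115, the product of Csf1r, from male C57BL/6 mice. The 4 groups were spleen and peripheral blood of intact animals, and both tissues 24 h after a resection that took 70% of the liver. Each group had 3 libraries, each from 5 pooled mice, and p-values measure the spread between these pools only. The labels call the controls intact and name no sham operation. Surgery, anaesthesia and loss of liver therefore cannot be told apart. Splenic cells went through mechanical disaggregation, collagenase, lysis of red blood cells and Ficoll, blood cells through Ficoll alone, so tissue and preparation cannot be told apart.

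The libraries held 36990033 to 46401368 estimated counts. Csf1r was present in all of them, at 374 to 525 CPM in intact spleen, 587 to 1192 in spleen after resection, 209 to 467 in intact blood and 601 to 719 in blood after resection, and all 10 genes of a monocyte list were present. RNA of other cells was present as well. In spleen 9 B-cell genes summed to 5425 to 6037 CPM in intact and 1380 to 4501 CPM in resected libraries. The 6 plasma-cell genes summed to 2215 to 3081 and 4069 to 4740 CPM there, and the 10 monocyte genes to 1842 to 2156 and 3734 to 4414 CPM. The fractions are therefore mixed. The summed level of 10 neutrophil genes was 1267 to 2284 CPM in intact and 5526 to 14948 in resected spleen, 139 to 497 in intact and 3804 to 19802 in resected blood. Haemoglobin genes took 13.2% to 34.2% of the gene counts in blood and 0.0814% to 3.47% in spleen, and 5 hepatocyte genes summed to at most 1.75 CPM. Intact blood library 3 stood apart, with T-cell genes at 2788 CPM against 1009 and 1041 and proliferation genes at 1864 CPM against 114 and 141 in the other intact blood libraries. Lck alone gave 1202 CPM of that T-cell sum, against 238 and 266. Cd8a (12.9 against 70.5 and 65.3 CPM), Cd8b1 (25.5 against 41.5 and 45.5) and Cd5 (11.4 against 64.0 and 54.4) were lower in library 3. The other T-cell genes of the list were higher there. Its B-cell genes summed to 592 CPM, against 1908 and 2733 CPM in the other intact blood libraries. Spleen library 3 after resection had the most neutrophil RNA of the spleen (14948 CPM) and the least B-cell RNA (1380 CPM). Members that rest on these libraries are given with and without them. In bulk samples fewer cells of a type and less RNA per cell cannot be told apart.

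BCL2 proteins decide whether the outer mitochondrial membrane is opened. BAX and BAK form the pores through which cytochrome c leaves, prosurvival proteins such as BCL2, BCL-XL (Bcl2l1), MCL1 and A1 (Bcl2a1) hold them in check, and BH3-only proteins such as BIM (Bcl2l11), BID, PUMA (Bbc3) and NOXA (Pmaip1) bind the prosurvival proteins or the pore formers. Monocytes and granulocytes are short-lived cells in which MCL1 and A1 are known as survival factors, and both are proteins of rapid turnover.

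The mouse genome holds several near-identical copies of Bcl2a1, so the sequences ahead of the 3 copies that passed the filter on low counts are shown, because the largest resection effect among the members was that of Bcl2a1b. They run from 250 bases before to 50 bases after the gene start, 5′ to 3′ on the strand of the gene, from RefSeq on GRCm38.p6, at chr9:89199023-89199322 (Bcl2a1b, plus strand), chr9:88956670-88956969 (Bcl2a1a, plus strand) and chr9:88731801-88732100 (Bcl2a1d, minus strand). Capitals mark the match to TGANTCA, a loose form of the AP-1 element. All 3 marked stretches read TGAATCA, which is not the AP-1 consensus itself.
Bcl2a1b: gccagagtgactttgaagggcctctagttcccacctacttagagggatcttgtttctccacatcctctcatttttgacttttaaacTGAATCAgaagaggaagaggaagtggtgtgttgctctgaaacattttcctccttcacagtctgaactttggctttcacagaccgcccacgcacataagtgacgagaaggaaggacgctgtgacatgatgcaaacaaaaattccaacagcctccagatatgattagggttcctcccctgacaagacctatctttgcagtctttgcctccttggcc
Bcl2a1a: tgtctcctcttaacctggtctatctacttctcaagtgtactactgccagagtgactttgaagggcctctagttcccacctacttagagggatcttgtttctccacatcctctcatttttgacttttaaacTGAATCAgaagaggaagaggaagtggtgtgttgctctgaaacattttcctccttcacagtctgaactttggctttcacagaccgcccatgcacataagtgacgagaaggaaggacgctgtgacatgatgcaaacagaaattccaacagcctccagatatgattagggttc
Bcl2a1d: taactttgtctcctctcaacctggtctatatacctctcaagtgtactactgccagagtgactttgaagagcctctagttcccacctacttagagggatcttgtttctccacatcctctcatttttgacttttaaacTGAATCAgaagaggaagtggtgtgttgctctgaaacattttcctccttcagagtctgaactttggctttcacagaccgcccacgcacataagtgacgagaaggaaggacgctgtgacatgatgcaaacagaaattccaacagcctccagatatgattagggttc
In a gapped alignment Bcl2a1b shared 99.2% of 256 aligned bases with Bcl2a1a and 98.8% of 250 with Bcl2a1d. Each of the 3 windows held 1 match to TGANTCA, at 164, 120 and 114 bases before the start in Bcl2a1b, Bcl2a1a and Bcl2a1d, and 7.81% of 32851 promoter windows of the same length held one on either strand. Bcl2a1c, with at most 16 counts in any library, did not pass the filter, and its window held no such match. The kappaB element, written as GGG, any 2 bases and TTTCC, had no match in the windows of the 4 copies. That match was found ahead of Mcl1, of 1 of the starts of Bcl2l1 and of 1 of the starts of Bbc3, and in 1.63% of all windows. The window of Pmaip1 is not reported here. A match of letters is a description of the sequence and not a bound site. The transcripts are as alike. Of the 100-base windows of the 817-base Bcl2a1b transcript (GENCODE M21), 31.1% were found letter for letter in another copy, so the division of reads among the copies is uncertain.

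In the CD115 fraction of blood resection was followed by higher Bcl2a1b, Bcl2l11 and Bcl2l1, 5.70-fold, 2.76-fold and 2.50-fold. In the CD115 fraction of spleen it was followed by higher Bbc3 and Bcl2l1, 3.91-fold and 3.63-fold. A gene was called at an adjusted p under 0.05 and a log2 fold change beyond 1 in either direction. With that rule 3 of 10 members were called in blood, all higher, where 13.9% of 20135 tested features were called and 7.8% were called higher. In spleen 2 of 10 were called, both higher, against 1.38% of all features (0.78% higher). Both prosurvival and proapoptotic members were among the genes called in either tissue. Without the fold limit Bax and Bak1 also passed in blood, 5 of 10 members against 21.1% of all features. The median log2 fold change of the members was 0.61 in blood and 0.16 in spleen, beside -0.10 and 0.05 over all features. The libraries of the groups did not overlap for 7 members in blood, all higher after resection, where this held for 38.4% of features and 19.4% were higher. In spleen they did not overlap for 5 members, 3 higher and 2 lower, against 35.1% of features.

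**Figure D1:**
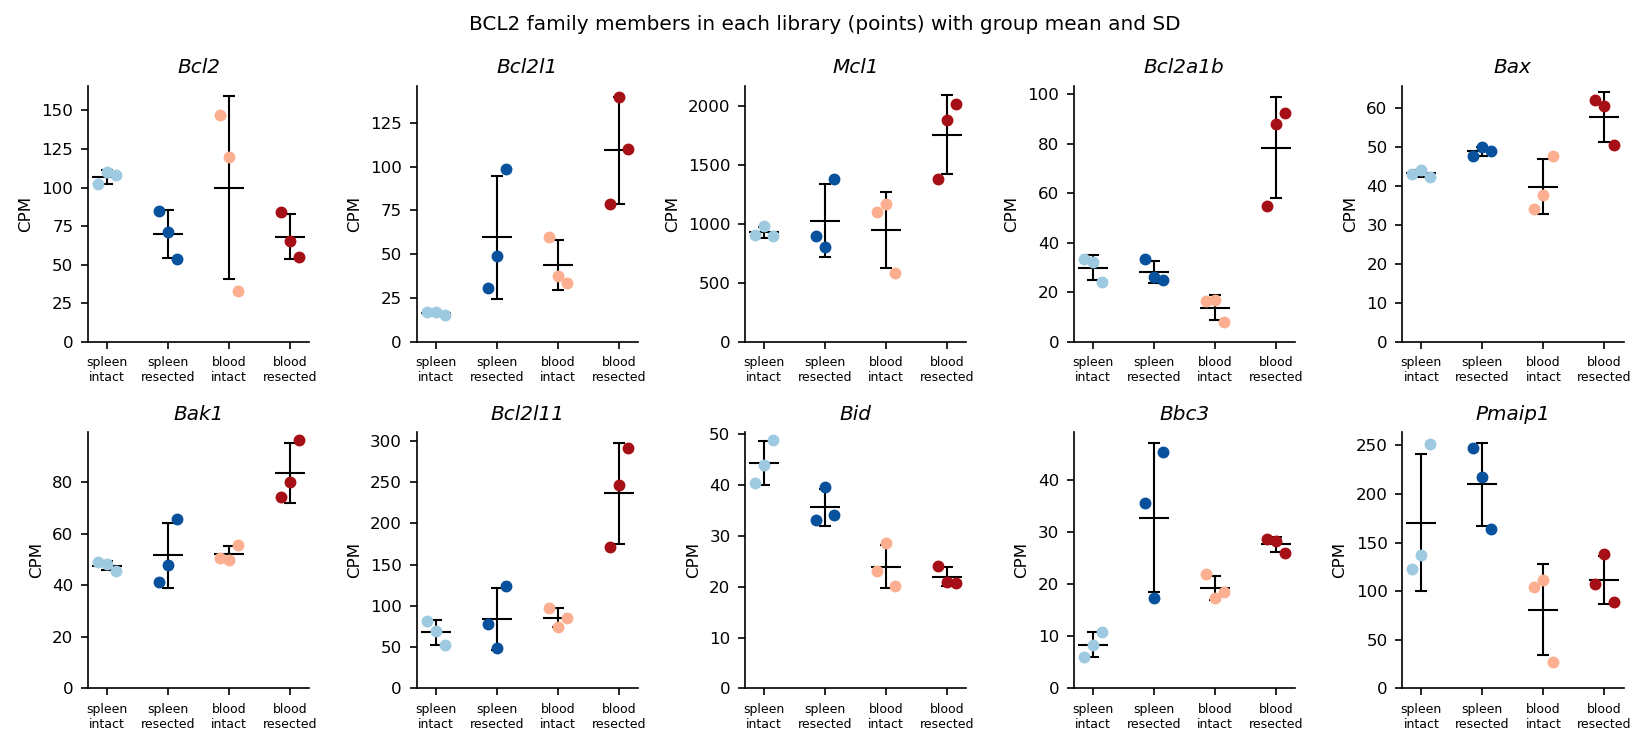
Level of each of the 10 members in CPM (vertical axis, linear from 0) in the 12 libraries, by group. Points are libraries in the order of their numbers, bars the mean and SD of 3. Bcl2a1b lies between 55.0 and 92.2 CPM in blood after resection and at or below 33.5 CPM in all other libraries.

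Bcl2a1b encodes A1, a prosurvival protein of blood cells whose gene is switched on by inflammatory signals. It measured 16.5, 16.9 and 7.86 CPM in intact blood and 55.0, 87.8 and 92.2 CPM after resection. In spleen it measured 33.5, 32.0 and 24.3 CPM in intact animals and 33.4, 26.1 and 25.1 CPM after resection. The resected blood libraries lay above all 9 others, and the splenic groups overlapped. The log2 fold change was 2.51 in blood (SE 0.32, adjusted p = 0.00131) and -0.09 in spleen (SE 0.30, adjusted p = 0.913). The difference between the 2 effects was 2.60 on the log2 scale (SE 0.43, adjusted p = 0.0467), and Bcl2a1b was the 1 member of 10 called for this difference, where 0.283% of features were called (0.219% higher). The blood value without intact library 3 was 2.23 (adjusted p = 0.00172), and it stayed past both limits when any 1 of the 12 libraries was left out (2.23 to 2.71). The call of the difference was less firm. It was kept without intact blood library 3 (2.31) and lost when any of the other 11 was left out (2.49 to 2.81). In intact animals Bcl2a1b was lower in blood than in spleen (-1.12, SE 0.30, adjusted p = 0.0467), a call lost with any 1 library left out (-1.22 to -0.74, the last without intact blood library 3). After resection it was higher in blood (1.47, SE 0.31, adjusted p = 0.00999) and remained so with any 1 library left out. Genes of other cells moved with Bcl2a1b in blood after resection, and their part in its values was not tested. Neutrophil genes rose there, 10 of 10 called, as did 6 of 8 genes of a peritoneal macrophage list and 5 of 7 of a red pulp macrophage list, while 8 of 10 T-cell genes fell. The peritoneal macrophage list summed to 460 to 1526 CPM in intact and 3117 to 4308 CPM in resected blood, against 122 to 155 and 92.4 to 206 CPM in spleen, with the 3 resected blood libraries above all others. The red pulp macrophage list summed to 114 to 399 CPM in intact and 1182 to 1494 CPM in resected blood, against 1210 to 1899 and 2166 to 4500 CPM in spleen. Hmox1 (565 to 801 CPM) and Cd5l (431 to 645 CPM) made up most of the sum in resected blood. Mertk (71.6 to 94.7 CPM) lay within its splenic range there. Spic and Vcam1 stayed at or below 6.42 and 4.78 CPM there, against at least 31.3 and 377 CPM in spleen. Axl was lower in resected than in intact blood (means of 9.19 and 34.3 CPM). In spleen 2 of 10 neutrophil genes, Ltf and Ly6g, were called higher and the sum of the list lay above that of the intact libraries in all 3 resected ones, while Bcl2a1b stayed between 25.1 and 33.4 CPM there.

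The other detected copies had similar patterns. Bcl2a1a measured 7.65, 6.24 and 2.27 CPM in intact blood and 21.8, 31.8 and 38.2 CPM after resection, a log2 fold change of 2.51 (SE 0.41, adjusted p = 0.00338). Bcl2a1d measured 21.1, 18.7 and 8.83 CPM in intact blood and 39.1, 55.7 and 50.9 CPM after resection (1.58, SE 0.31, adjusted p = 0.00736). In neither did the blood groups overlap. In spleen Bcl2a1d stood at 28.5, 25.3 and 23.4 CPM before and 20.7, 16.2 and 12.4 CPM after resection, without overlap and not past the test. The copies summed as 1 feature gave 2.16 in blood (SE 0.31, adjusted p = 0.00222), -0.30 in spleen (adjusted p = 0.620) and 2.46 for the difference (SE 0.43, adjusted p = 0.0561). Bcl2a1b took 36.4% to 53.8% of that sum in the 12 libraries.

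**Figure D2:**
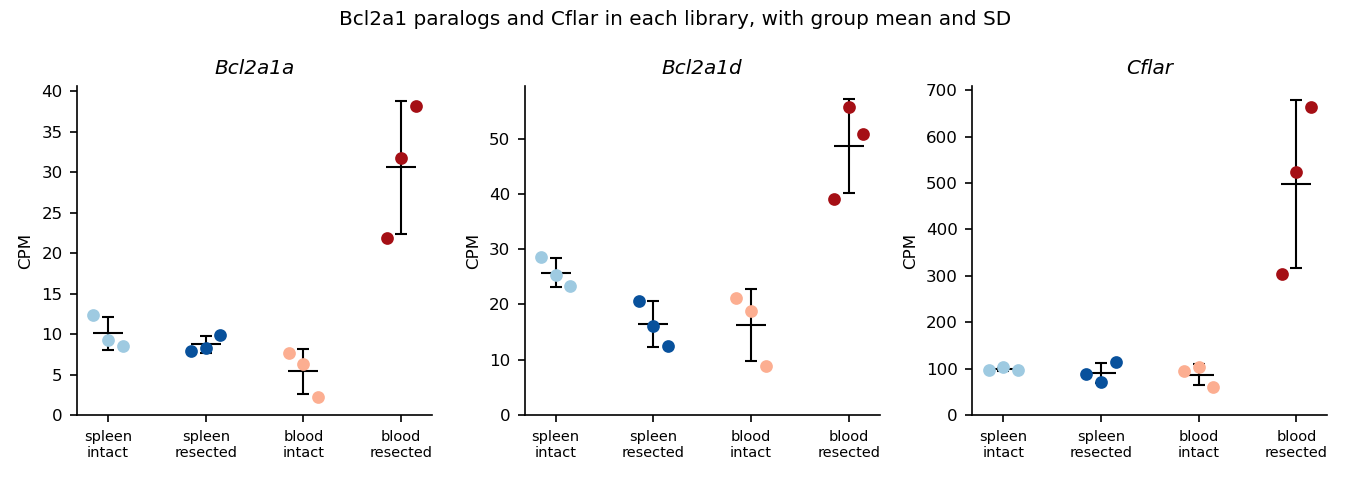
Bcl2a1a, Bcl2a1d and Cflar in CPM (linear axis from 0) in the 12 libraries, with the mean and SD of 3 per group. In each of them the 3 resected blood libraries lie above all others, from 21.8 CPM in Bcl2a1a, 39.1 CPM in Bcl2a1d and 304 CPM in Cflar.

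Bcl2l1 encodes BCL-XL, the prosurvival protein that erythroid cells and platelets depend on. It measured 16.9, 17.0 and 15.4 CPM in intact spleen and 31.0, 49.2 and 98.7 CPM after resection. In blood it measured 59.9, 37.8 and 33.8 CPM in intact animals and 78.6, 139.5 and 110.0 CPM after resection. Neither tissue showed overlap, and the resected splenic libraries were spread widely. Of its counts 14.1% came from RefSeq accessions summed with the symbol, and without that sum the splenic value was 1.79 and not called. The log2 fold change was 1.86 in spleen (SE 0.40, adjusted p = 0.0487) and 1.32 in blood (SE 0.39, adjusted p = 0.0397), and the difference between the tissues was not past the test (-0.54, SE 0.55, adjusted p = 0.645). Both calls lay close to the limit. Without spleen library 3 the splenic value was 1.29 (adjusted p = 0.124), and without intact blood library 3 the blood value was 1.16 (adjusted p = 0.103). The splenic call was lost in 10 and the blood call in 8 of the 12 fits with 1 library left out, with values from 1.29 to 2.17 and from 1.10 to 1.65. The splenic call was kept only without resected spleen library 1 or intact blood library 3, the blood call only without resected spleen library 1 or 3, resected blood library 1 or intact blood library 1. In intact animals blood was above spleen without overlap (1.42, SE 0.40, adjusted p = 0.0530), and this passed without intact blood library 3 (1.68). The summed level of erythroid genes was 593 to 2813 CPM in intact and 6088 to 26676 CPM in resected spleen, 96977 to 315802 CPM in intact and 172563 to 420211 CPM in resected blood. Platelet genes, 6 in number, summed to 8.45 to 18.2 CPM in intact and 11.2 to 29.5 CPM in resected spleen, 82.5 to 301 CPM in intact and 812 to 899 CPM in resected blood, with 6 of 6 called higher in blood than in spleen in both states. The part of erythroid and platelet RNA in the Bcl2l1 values was not tested. With resected spleen library 2 left out, the one with the highest erythroid sum of the spleen, the splenic value was 1.98 (adjusted p = 0.0831). Resected spleen libraries 1 and 3 (6088 and 7604 CPM) still lay above all intact ones in that sum, so this fit cannot separate the erythroid part.

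Mcl1 encodes the short-lived prosurvival protein MCL1. It measured 907, 986 and 898 CPM in intact spleen, 901, 803 and 1385 CPM in resected spleen, 1099.5, 1173 and 582 CPM in intact blood and 1379.6, 1882 and 2020.0 CPM in resected blood. The blood groups did not overlap and the splenic ones did. The log2 fold change was 0.89 in blood (SE 0.30, adjusted p = 0.0574) and 0.15 in spleen (SE 0.29, adjusted p = 0.830), so Mcl1 was not called in either. Without intact blood library 3 the blood value was 0.63. Between resected blood and resected spleen it was 0.77 (SE 0.30, adjusted p = 0.0947), and it passed without spleen library 3 (1.15, adjusted p = 0.0331).

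Bcl2, the founding member of the family and a survival factor of lymphocytes above all, had its highest values in intact animals. It measured 102, 110.2 and 108 CPM in intact spleen and 84.7, 71.1 and 53.6 CPM after resection, without overlap. In blood it measured 147, 119.9 and 33.2 CPM in intact animals and 84.0, 65.6 and 55.1 CPM after resection, and intact library 3 was the lowest of all 12. Neither effect passed (-0.62, SE 0.43, adjusted p = 0.451 in spleen, -0.55, SE 0.43, adjusted p = 0.389 in blood). Without intact blood library 3 the blood value was -0.98 with an adjusted p of 0.0140, just inside the fold limit. B-cell genes summed to 5425 to 6037 CPM in intact and 1380 to 4501 CPM in resected spleen. In blood they summed to 1908, 2733 and 592 CPM in intact and 1908, 1324 and 778 CPM in resected libraries. Intact blood library 3 had the lowest B-cell sum of all 12. The part of B-cell RNA in the Bcl2 values was not tested.

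The effectors were higher in blood after resection by less than the fold limit. Bax measured 34.1, 37.7 and 47.7 CPM in intact blood and 62.2, 60.6 and 50.4 CPM after resection. In spleen it measured 43.2, 44.2 and 42.3 CPM and then 47.7, 50.1 and 49.1 CPM. Neither tissue showed overlap. Its log2 fold change was 0.53 in blood (SE 0.14, adjusted p = 0.0228), past the p limit but under the fold limit, and 0.18 in spleen (SE 0.14, adjusted p = 0.501). Bak1 measured 50.5, 49.9 and 55.7 CPM in intact blood and 74.2, 80.1 and 96.4 CPM after resection (0.68, SE 0.17, adjusted p = 0.0197), again past the p limit alone. In spleen it measured 49.0, 48.1 and 45.6 CPM and then 41.4, 47.7 and 65.7 CPM, which overlapped (0.12, SE 0.17, adjusted p = 0.751). After resection Bak1 was higher in blood than in spleen by 0.70 (SE 0.17, adjusted p = 0.0201), and by 1.01 without spleen library 3.

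Bcl2l11 encodes BIM, a BH3-only protein that binds all prosurvival members and removes myeloid cells deprived of growth factors. It measured 97.8, 74.1 and 85.2 CPM in intact blood and 171, 247 and 292 CPM after resection. In spleen it measured 81.9, 69.0 and 52.4 CPM and then 78.3, 49.3 and 124 CPM. The resected blood libraries lay above all 9 others and the splenic groups overlapped. The log2 fold change was 1.46 in blood (SE 0.33, adjusted p = 0.0128), from 1.31 to 1.67 with any 1 library left out and called each time. In spleen it was 0.31 (SE 0.32, adjusted p = 0.643) and turned to -0.08 without spleen library 3. The difference between the tissues did not pass (1.16, SE 0.46, adjusted p = 0.241). Resected blood exceeded resected spleen by 1.499 (SE 0.33, adjusted p = 0.0129), and in intact animals the tissues overlapped (0.34, SE 0.32, adjusted p = 0.564).

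Bbc3 encodes PUMA, a target of p53 and of stress-induced transcription factors. It measured 6.06, 8.22 and 10.8 CPM in intact spleen and 35.6, 17.2 and 45.4 CPM after resection. In blood it measured 21.9, 17.3 and 18.5 CPM and then 28.6, 28.2 and 25.9 CPM. The groups did not overlap in either tissue, and intact spleen was the lowest of the 4. The Bbc3 log2 fold change was 1.97 in spleen (SE 0.33, adjusted p = 0.0253) and 0.52 in blood (SE 0.32, adjusted p = 0.269), with a difference of -1.45 that did not pass (SE 0.45, adjusted p = 0.180). The splenic call was lost in 6 of the 12 fits with 1 library left out, among them that without spleen library 3 (1.66, adjusted p = 0.0792), and the value ran from 1.66 to 2.27. The others were those without intact spleen library 1 (1.78) or 2 (1.96), resected spleen library 1 (1.90), resected blood library 2 or intact blood library 2 (1.95 in both). In intact animals Bbc3 was higher in blood than in spleen (1.20, SE 0.32, adjusted p = 0.0450), a call kept only without resected spleen library 2 or 3 among those fits (1.12 to 1.53).

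Pmaip1 encodes NOXA, which binds MCL1 and A1. It varied widely within groups, at 123, 137 and 251 CPM in intact spleen and 247, 218 and 164 CPM after resection, and at 104, 112 and 27.0 CPM in intact blood and 108, 138 and 88.9 CPM after resection. The intact and resected libraries overlapped in both tissues (0.30, SE 0.47, adjusted p = 0.773 in spleen, 0.46, SE 0.47, adjusted p = 0.521 in blood). Without intact blood library 3 the blood value was 0.04.

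Bid, which links death receptors to the mitochondria once caspase 8 has cut it, differed between the tissues. It measured 40.4, 44.0 and 48.9 CPM in intact spleen and 33.1, 39.7 and 34.0 CPM after resection. In blood it measured 23.1, 28.6 and 20.2 CPM and then 24.1, 21.0 and 20.8 CPM. All 6 splenic libraries lay above all 6 blood libraries. Blood against spleen was -0.89 in intact animals (SE 0.15, adjusted p = 0.00917) and -0.70 after resection (SE 0.15, adjusted p = 0.0131), both past the p limit and under the fold limit. Resection effects did not pass (-0.32, SE 0.15, adjusted p = 0.270 in spleen, -0.13, SE 0.15, adjusted p = 0.597 in blood).

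Between the tissues 2 of 10 members were called in intact animals, Bbc3 higher and Bcl2a1b lower in blood, against 7.35% of all features (3.86% higher, 3.49% lower). After resection 2 of 10 were called, Bcl2a1b and Bcl2l11, both higher in blood, against 13.2% of features (6.28% higher). Scaling with RLE factors moved the median over all features by more than 0.1 in this comparison, from -0.14 to -0.03, and the same scaling in intact animals moved it from -0.02 to 0.05. Both calls after resection were kept under RLE factors.

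**Figure D3:**
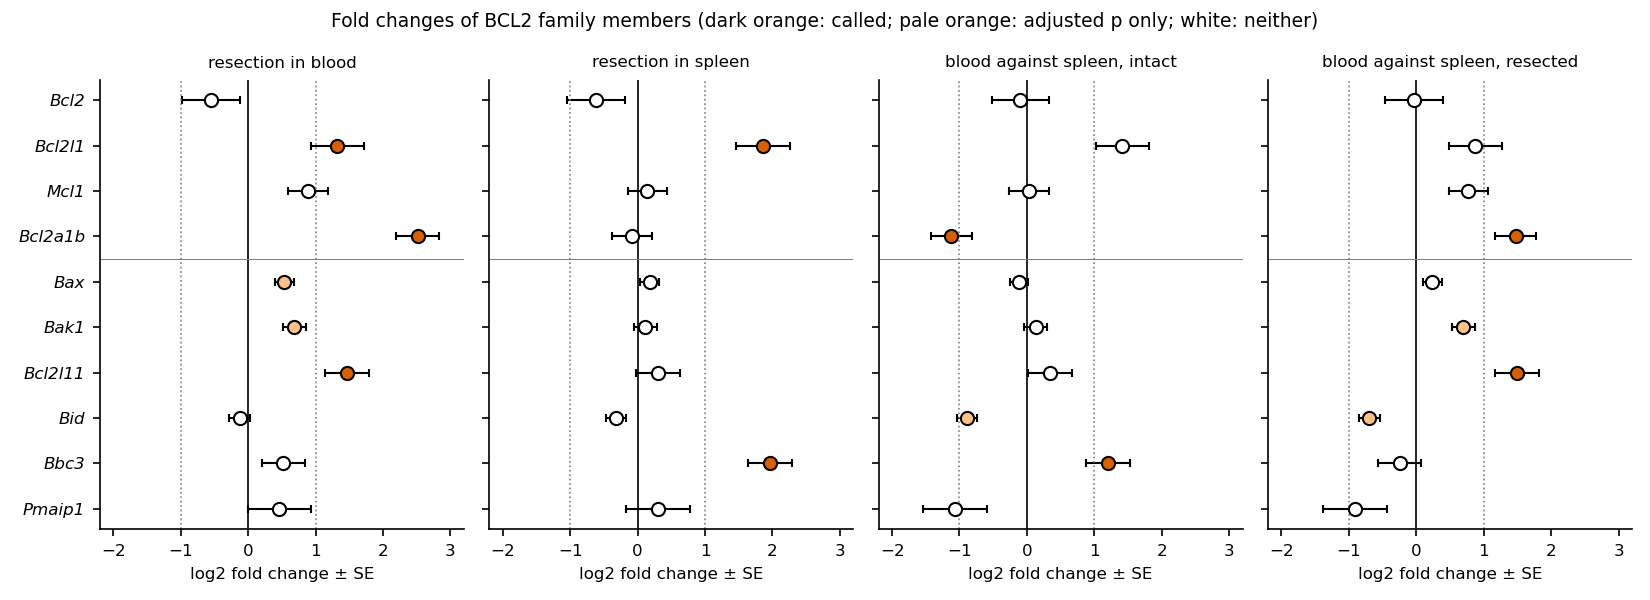
Log2 fold change of each member in 4 comparisons (horizontal axis, bars ± SE), with 3 libraries per group. Dark orange points passed the adjusted p and the fold limit (dotted lines at 1 and -1), pale orange points the adjusted p alone, and the line across each panel separates the 4 prosurvival members above from the 6 proapoptotic ones.

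Of 17 other genes of the family 12 passed the filter on low counts. In blood 4 of them were called higher after resection and 1 lower, where 13.9% of all features were called and 7.8% were called higher. Beside Bcl2a1a and Bcl2a1d, these were Bnip3, a mitophagy receptor (2.43, SE 0.68, adjusted p = 0.0305), Bcl2l15 (4.82, SE 1.27, adjusted p = 0.0245) and, lower, Bmf, a BH3-only gene (-1.16, SE 0.27, adjusted p = 0.0154). Bmf measured 33.2, 27.9 and 35.6 CPM in intact blood and 16.7, 10.2 and 16.4 CPM after resection, and was not called without resected blood library 2 (-0.95). Bcl2l15 rested on 1 library, at 4.12, 2.72 and 48.1 CPM in resected blood and 5.79, 9.24 and 54.4 CPM in resected spleen. These are the libraries with the highest neutrophil sum of their tissue, 19802 and 14948 CPM, and without blood library 3 the value was 2.41 and not called. The call was also lost without any 1 of the intact blood libraries (4.57 to 5.24). Bnip3 measured 5.89, 5.91 and 2.64 CPM in intact and 9.86, 27.3 and 40.9 CPM in resected blood, without overlap, and lost its call without blood library 3 (1.96), without blood library 2 (2.39) and without any 1 of the intact blood libraries (2.14 to 2.63). In spleen edgeR called 0 of the 12 after resection, with 1 at an unadjusted p under 0.05 and 0 by DESeq2. Between the tissues Bnip3l, which clears mitochondria from maturing red cells, was higher in blood in intact animals (2.25, SE 0.40, adjusted p = 0.0101) and after resection (2.06, SE 0.40, adjusted p = 0.00732), where erythroid genes were higher too, 5 of 7 called in each. After resection Bmf (-1.25, SE 0.27, adjusted p = 0.0123) and Bcl2l12 (-1.002, SE 0.21, adjusted p = 0.0105) were lower in blood than in spleen. The Bcl2l12 value was -0.89 under RLE factors, inside the fold limit, and Bmf lost its call without spleen library 3 (-0.87) or blood library 2 (-0.96).

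Genes that act before or after the family at the mitochondria were taken as 7 lists with 59 genes, 57 of them tested. In blood 6 were called higher and 2 lower after resection, and in spleen 1 was called higher, shares near the 13.9% and 1.38% of all features called. On the path from death receptors to BID 3 of 7 rose in blood. Cflar encodes c-FLIP, which keeps caspase 8 from cutting BID, and measured 95.6, 104 and 60.9 CPM in intact blood and 304, 524 and 663 CPM after resection, with no overlap. Its log2 fold change was 2.52 (SE 0.31, adjusted p = 0.00124), against -0.11 (SE 0.30, adjusted p = 0.877) in spleen. The difference between the tissues was called (2.63, SE 0.43, adjusted p = 0.0438) and lost that call in 10 of the 12 fits with 1 library left out (2.40 to 2.90), all but those without resected spleen library 3 or resected blood library 1. Fas, the death receptor itself, rose as well, from 9.72, 9.33 and 4.57 to 21.6, 34.6 and 77.2 CPM (2.50, SE 0.56, adjusted p = 0.0125), and so did Tnfrsf1a, the receptor of TNF (1.34, SE 0.34, adjusted p = 0.0215), which lost its call without blood library 2 (1.35) or 3 (1.22). After resection Cflar (2.44, adjusted p = 0.00132) and Fas (2.40, adjusted p = 0.0160) were higher in blood than in spleen, Fas not without blood library 3 (1.86) or spleen library 1 (2.23) or 2 (2.32). Of the inhibitors of caspases 1 of 8 rose in blood, Naip1, from 10.7, 6.78 and 5.48 to 47.2, 51.2 and 67.9 CPM (2.85, SE 0.40, adjusted p = 0.00192). Naip1 is a sensor of bacterial proteins as well, and its copies resemble each other in sequence, so its counts are uncertain.

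Of 13 tested genes of the p53 pathway 2 rose and 1 fell in blood, where 13.9% of all features were called. Mdm2, which marks p53 for degradation, went from 87.5, 79.1 and 73.0 to 193, 312 and 362 CPM (1.86, SE 0.25, adjusted p = 0.00168), called with any 1 library left out. Trp53 itself measured 76.1, 84.9 and 149.9 CPM and then 50.2, 50.7 and 30.3 CPM (-1.24, SE 0.30, adjusted p = 0.0178), and this was not called without intact blood library 3 (-0.89) or resected blood library 3 (-0.99). Cdkn1a, the cell cycle inhibitor p21, had 1.74 (SE 0.53, adjusted p = 0.0427), a call lost in 9 of the 12 fits with 1 library left out (1.38 to 2.14), all but those without resected spleen library 2 or 3 or intact blood library 1. In spleen 0 of the 13 were called by edgeR, with 6 at an unadjusted p under 0.05 and 1 called by DESeq2. Among regulators of BH3-only genes 1 of 7 rose in spleen after resection. This was Atf4, a transcription factor of the stress response, from 319, 337 and 532 to 932, 757 and 725 CPM (1.02, SE 0.22, adjusted p = 0.0487), a call lost in 10 of the 12 fits (0.89 to 1.29), all but those without intact spleen library 3 or intact blood library 3. Ddit3, which encodes CHOP, measured 28.6, 30.4 and 87.4 CPM in intact spleen and 219, 146 and 113 CPM after resection. Its libraries did not overlap, and it was called by DESeq2 alone (1.70), while between the tissues after resection it was lower in blood (-2.04, SE 0.42, adjusted p = 0.0100), not called without resected blood library 2 (-1.85). Of 5 genes of MCL1 turnover 1 fell in blood, the ubiquitin ligase Huwe1 (-1.06, SE 0.22, adjusted p = 0.00978), at 397, 393 and 559.8 CPM before and 218, 182 and 248 CPM after resection, not called without intact blood library 3 (-0.88) or resected blood library 2 (-0.93). Of 9 apoptosome and caspase genes and 8 mitochondrial partners edgeR called 0 in blood, as did DESeq2, with 2 and 2 at an unadjusted p under 0.05. Past the adjusted p limit but inside the fold limit were 1 higher and 1 lower of the 9, and 1 higher of the 8.

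Other genes of these lists differed between the tissues. In intact animals Naip1 (2.10, adjusted p = 0.0128) and Phlda3 (2.22, adjusted p = 0.0284) were higher in blood. After resection Naip1 (4.37, adjusted p = 0.000475), Mdm2 (1.38, adjusted p = 0.00568) and Phlda3 (2.15, adjusted p = 0.0189) were higher in blood, and Pidd1 (-1.82, adjusted p = 0.0278) and Btrc (-1.04, adjusted p = 0.00438) lower. Btrc was inside the fold limit under RLE factors (-0.93). Phlda3 stayed at or below 4.41 CPM in all 12 libraries. With 1 library left out, the intact calls were lost for Naip1 without spleen library 2 (2.09) and for Phlda3 without any intact spleen library (2.27 to 2.42). After resection those of Phlda3 were lost without spleen library 1 (2.08) or 2 (2.14), that of Pidd1 without any 1 library other than the intact blood ones (-1.92 to -1.47), and that of Btrc in all but the fits without resected spleen library 1 or 3 or resected blood library 2 (-0.97 to -0.80). In these comparisons 2 of 57 genes were called in intact animals, against 7.35% of all features, and 5 higher and 3 lower after resection, against 13.2%.

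The prosurvival and proapoptotic genes were also set against each other as the mean of log2(CPM + 0.5) over the 4 and the 6 members, which gives each gene the same weight. The prosurvival mean minus the proapoptotic one was 1.02, 0.99 and 0.67 in intact spleen, 0.66, 0.85 and 0.77 in resected spleen, 1.30, 1.13 and 0.40 in intact blood and 1.26, 1.53 and 1.51 in resected blood. The splenic groups overlapped, and so did the blood groups, through intact library 1. Intact blood library 3 had the lowest of the 12 values. Both means were higher in blood after resection, 7.23 to 7.63 against 5.61 to 6.83 for prosurvival and 5.98 to 6.10 against 5.21 to 5.53 for proapoptotic members. In spleen both were higher as well, 6.54 to 6.88 against 6.30 to 6.47 and 5.69 to 6.10 against 5.41 to 5.63. Within the prosurvival members the ratio of Bcl2l1 to Bcl2, in CPM, was 0.142 to 0.165 in intact and 0.366 to 1.84 in resected spleen, 0.315 to 1.02 in intact and 0.936 to 2.13 in resected blood. The ratio of Bcl2 to Bcl2l11 was 0.389 to 1.62 in intact and 0.189 to 0.491 in resected blood, which overlap through intact library 3. These are descriptions without a test.

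**Figure D4:**
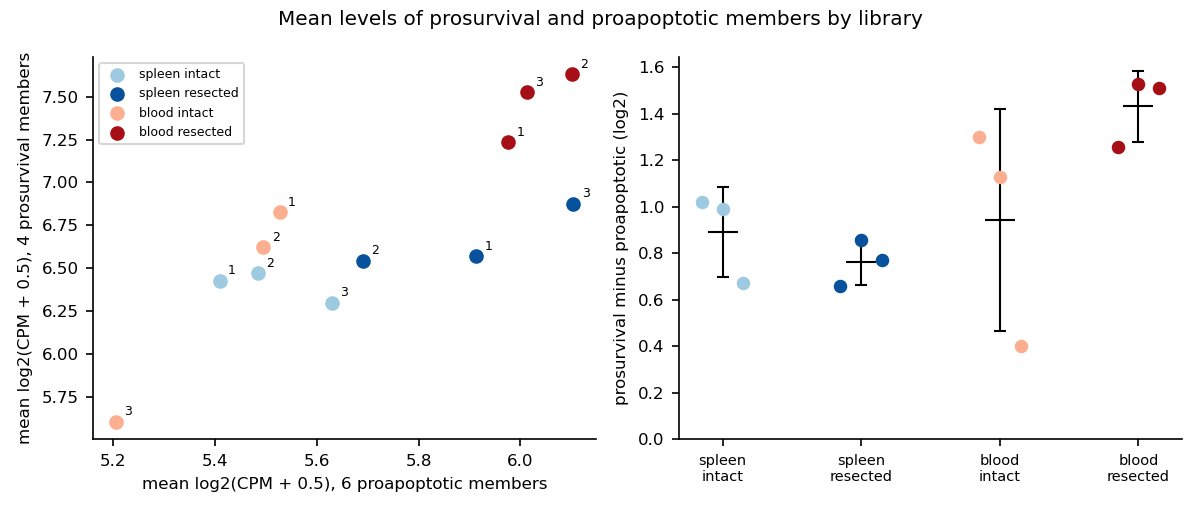
Left, mean log2(CPM + 0.5) of the 4 prosurvival against the 6 proapoptotic members, with 1 point per library and its replicate number. Right, the difference of both means by group, with the mean and SD of 3 libraries, from 0.40 in intact blood library 3 to 1.53 in a resected blood library.

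To compare genes with each other, CPM were divided by the length of the union of exons in kb (GENCODE M21). Mcl1 was the highest member in all 4 groups, with 272 ± 14.2, 301 ± 91.1, 278 ± 94.3 and 515 ± 98.6 CPM per kb in intact spleen, resected spleen, intact blood and resected blood (SD, n = 3 libraries), and it overlapped the second gene in none. In intact spleen Pmaip1 (62.3), Bax (49.8), Bcl2a1b (36.6), Bid (20.3), Bak1 (19.9), Bcl2 (11.7), Bcl2l11 (9.82), Bbc3 (4.61) and Bcl2l1 (4.22 CPM per kb) followed. Of these neighbours Pmaip1 and Bax, Bid and Bak1, Bcl2 and Bcl2l11, and Bbc3 and Bcl2l1 overlapped. In resected spleen Pmaip1 (76.8), Bax (56.4) and Bcl2a1b (34.5) again came next without overlap, and the other 6, from Bak1 (21.6) to Bcl2 (7.62 CPM per kb), each overlapped its neighbour. In intact blood Bax (45.97), Pmaip1 (29.7) and Bak1 (21.8) came next, and Pmaip1 overlapped both Bax and Bak1. Bcl2a1b (16.8) stood below Bak1, with the genes from there to Bbc3 (10.6 CPM per kb) overlapping one another. In resected blood Bcl2a1b (95.9) was second with an overlap to Bax (66.6), and Bcl2 was last (7.45 CPM per kb), below Bid (10.03).

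The gene most like each member over the 12 libraries was sought among 10395 genes with a symbol and a mean of at least 5 CPM, by Pearson's r of log2 CPM. For the prosurvival members it was Peg13 for Bcl2 (r = 0.969), Phospho1 for Bcl2l1 (0.968), Ptpn12 for Mcl1 (0.983) and Dnajb11 for Bcl2a1b (0.987). For the effectors it was Tomm6 for Bax (0.941) and Timp1 for Bak1 (0.980). For the BH3-only genes it was Clmn for Bcl2l11 (0.976), Zbtb46 for Bid (0.968), Klf10 for Bbc3 (0.960) and Ier5 for Pmaip1 (0.967). Among the members themselves Bak1 and Bcl2l11 were most alike (r = 0.935), while Bcl2l11 and Bid were least alike (r = -0.73). The 12 points share their groups, library sizes and tissue, so these values describe the libraries and carry no test. Zbtb46 is a gene of conventional dendritic cells and stood on the list used for them, whose 7 genes summed to 97.7 to 213 CPM in spleen and 35.2 to 135 CPM in blood. Its part in the Bid values was not tested.

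**Figure D5:**
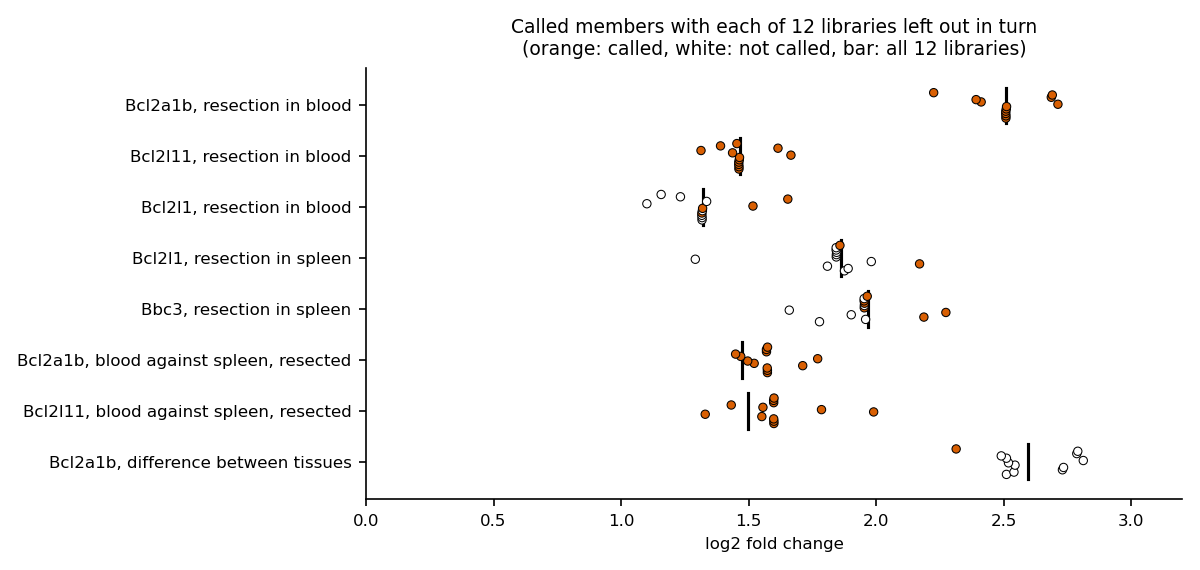
Log2 fold change of members called in a comparison (horizontal axis) when each of the 12 libraries is left out in turn, with black bars for the fit over all 12. Orange points were still called, and Bcl2a1b and Bcl2l11 in blood after resection and against spleen after resection were called in all 12 fits.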

How the data were processed

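For each library the authors deposited estimated counts, given to 3 decimals at most and not scaled. The submitters' processing notes name STAR and GRCm39. The counting tool, the annotation and the test are not given in the sources used here. An Illumina HiSeq is named in the methods, a strand-specific mRNA library of another platform in the labels. Unassigned transcripts (1.75% to 4.33% of a library) were left out. Counts under RefSeq accessions were added to the symbol they belong to (25340 of 40274 matched by the gene names of RefSeq on GRCm38.p6) and rounded.

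From these counts, edgeR 4.0.16 in R 4.3.3 (filterByExpr, TMM, robust quasi-likelihood test with Benjamini-Hochberg adjustment) was fitted over all 12 libraries and 4 groups, taken from the labels, without covariates, on 20135 features. The code was run on simulated counts with a lower dispersion than these data (common dispersion 0.312) and no outlying libraries. That run therefore does not show how often calls are right or missed here. A call needed an adjusted p below 0.05 and a log2 fold change beyond 1 either way. SE is the absolute log2 fold change over the square root of F. With 36990033 to 46401368 counts per library, 3 counts corresponded to at most 0.102 CPM, which covers counting error only. No 2 replicates were alike within sampling error (reduced chi-square 21.3 to 619).

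The members and the lists were chosen with earlier results of these data known. Named are all members, up to 3 called genes per list and comparison with the smallest p, and the most correlated gene of each member (log2 CPM with a prior count of 2). The spleen values of Ddit3 and Bcl2a1d were named after they were seen. Some genes of the lists are not reported here. Promoter windows come from RefSeq (GRCm38.p6) and were aligned with Biopython 1.88. Alternatives were DESeq2 1.42.0, RLE factors, no low-count filter, a replicate block, only the groups compared, haemoglobin genes left out, rows as deposited, no fold limit, Bcl2a1 copies summed and each library left out. Proteins were not analysed here.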

Additional observations from a re-analysis of the deposited data

Results flagged for a closer look

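The effect of resection on Bcl2a1b was called as different between the tissues by the test of the difference itself, close to the limit. The log2 fold change was 2.51 in blood and -0.09 in spleen, a difference of 2.60 (SE 0.43, adjusted p = 0.0467 in edgeR). Over the alternatives the difference ran from 2.24 to 2.81 with adjusted p from 5.55e-06 to 0.159. The call was lost when any library other than intact blood library 3 was left out. It was also lost with RLE factors, no low-count filter, haemoglobin genes left out, rows as deposited, the replicate block or the copies summed. All 3 resected blood libraries lay above all 3 intact ones, while the splenic libraries overlapped. Of 10 neutrophil genes 10 were called higher after resection in blood and 2, Ltf and Ly6g, in spleen, where 7.8% and 0.78% of all features were called higher. The neutrophil list summed to 139 to 497 CPM in intact and 3804 to 19802 CPM in resected blood. In spleen its sum was higher after resection as well, 5526 to 14948 CPM against 1267 to 2284 CPM. Of 8 peritoneal macrophage genes 6 were called higher in blood, where the list summed to 460 to 1526 CPM in intact and 3117 to 4308 CPM in resected animals, against 122 to 155 and 92.4 to 206 CPM in spleen. The part of these genes in the difference was not tested.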

How the results depend on the processing

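The calls of Bcl2a1b and Bcl2l11 in blood after resection, and of both against spleen after resection, were kept under every alternative run. For resection in blood 3 members were called, 5 with no fold limit, and 2 to 3 with 1 library left out. For resection in spleen 2 were called, 1 with RLE factors, no low-count filter or rows as deposited, 0 with only the groups compared, and 0 to 2 with 1 library left out. Between intact tissues 2 were called, 0 with no low-count filter, 1 with only the groups compared or rows as deposited, and 0 to 2 with 1 library left out. Between resected tissues 2 were called, 4 with no fold limit, and 2 to 5 with 1 library left out, 5 without spleen library 3 (Bcl2l1, Mcl1 and Bak1 added). For the difference 1 was called, 2 by DESeq2 (Bbc3 added), 0 with RLE factors, no low-count filter, haemoglobin genes left out or rows as deposited, and 0 to 1 with 1 library left out. Without both intact blood library 3 and spleen library 3, an alternative chosen after seeing the data, 1 was called in spleen and 5 between resected tissues. The causes were not tested.

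The labels do not say whether replicate numbers pair the libraries. Intact and resected libraries come from different animals, so their pairs cannot show shared mice. Of 18 same-numbered pairs 2 had a correlation of deviations over 0.1 (-0.05 to 0.19). These were resected spleen with resected blood, 0.13 for number 2 and 0.19 for number 3, beside 0.04 for number 1. Intact spleen with intact blood gave 0.0002, 0.051 and 0.035 for numbers 1, 2 and 3. Each resected spleen library was most like the resected blood library of its own number. Among intact libraries this held for spleen libraries 2 and 3 but not 1. Over all groups it held in 9 of 18 combinations, a count that includes intact against resected libraries and so cannot decide the question. Pairing of the tissues by number was not settled. With the replicate block 1 member was called in spleen, 0 between intact tissues and 0 for the difference, and the block lost the Bcl2l1 call in blood (1.28, adjusted p = 0.0807).

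Among all features, resection in blood had 2801 calls, 1590 with only the groups compared, 4242 with no fold limit and 1627 to 2814 with 1 library left out. Resection in spleen had 277, 1564 by DESeq2, 101 without the filter, 150 with the block, 537 without both libraries and 1 to 1025 with 1 left out. Intact tissues had 1480, 2568 by DESeq2, 796 with only the groups compared and 531 to 1494 with 1 left out. Resected tissues had 2648, 4222 without both libraries and 1450 to 3625 with 1 left out. The difference had 57, 1163 by DESeq2, 22 without the filter, 1 with the block, 355 without both libraries and 5 to 93 with 1 left out.

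Reversed signs were seen in small, uncalled values. With 1 library left out they ran, for resection in blood, from -0.24 to 0.041 (Bid). For resection in spleen they ran from -0.13 to 0.30 (Mcl1), -0.092 to 0.25 (Bak1) and -0.085 to 0.57 (Bcl2l11). Between intact tissues they ran from -0.41 to 0.43 (Bcl2), -0.068 to 0.39 (Mcl1) and -0.16 to 0.020 (Bax), between resected tissues from -0.11 to 0.23 (Bcl2) and -0.45 to 0.16 (Bbc3), and for the difference from -0.36 to 0.48 (Bcl2), -0.85 to 0.029 (Bcl2l1) and -0.26 to 0.46 (Pmaip1). Without both libraries they were -0.13 (Mcl1), -0.091 (Bak1) and -0.084 (Bcl2l11) in spleen, 0.43 (Bcl2) between intact and 0.16 (Bbc3) between resected tissues, and -0.52 (Bcl2) and -0.41 (Pmaip1) for the difference. Bcl2 between intact tissues was 0.016 with haemoglobin genes left out and 0.00028 with rows as deposited. Between resected tissues Bcl2 was 0.078 by DESeq2 and with RLE factors, 0.048 with no low-count filter, 0.031 with only the groups compared, 0.079 with haemoglobin genes left out and 0.071 with rows as deposited. Of 1045 member values under an alternative 895 kept their direction and side of the limits, 83 lost a call, 20 gained one and 47 changed sign.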
